A study of Mus musculus with 22 samples.

Results

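The 10 genes described here encode proteins that set how much active P53 a cell holds, or that pass DNA damage signals to it. They are Mdm2, Mdm4 and Usp7, which act on P53 stability, Ppm1d, Ccng1 and Trp53inp1, which P53 itself can switch on, and the kinase genes Atm, Atr, Chek1 and Chek2. They were picked by gene symbol, as the rows of the RNA tables whose symbol equals one of these names, and they are 10 of 33641 symbols. Their 76 transcripts are among 105129 in each table, and all 10 genes exceeded a mean of 1 TPM (a level scaled for transcript length and for the total of the library) over the 12 libraries.

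P53 is a transcription factor that halts or kills cells with damaged DNA, and its level is held low by feedback. Mdm2 is a ubiquitin ligase that marks P53 for destruction, and because P53 activates the Mdm2 gene, a rise in P53 activity raises its own inhibitor. Around this loop, kinases that sense DNA breaks and stalled replication modify P53 and Mdm2 so that they separate, and the phosphatase Ppm1d reverses those marks. In blood stem cells P53 is known as a regulator of quiescence and survival.

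RNA came from LSK cells, a bone marrow fraction that lacks lineage markers and carries Sca-1 and Kit, in which blood stem cells and multipotent progenitors are found. All mice were C57BL/6 and received pI:pC, a double-stranded RNA used to start the deletion, and cells were sorted 6 days later and used without culture. The 4 genotypes were WT, Chd8-/- (Chd8 KO), P53-/- (P53 KO) and Chd8-/-P53-/- (DKO), with 3 libraries each. The labels do not give the Cre driver, the age of the mice, the deleted exons, or whether replicates were separate animals, so the p-values measure only the spread between these libraries, which may in part be technical. Chd8 encodes a chromatin remodeler, and the design asks what its loss does to these cells with and without P53. The other 10 samples of the series, from ATAC-seq and CUT&RUN, were not analysed here.

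Both targeted genes followed the labels. Chd8 (chromosome 14, 52198151 to 52258042, GRCm38) ranged from 48.2 to 73.9 TPM in WT and P53 KO. It ranged from 26.2 to 35.6 TPM in Chd8 KO and from 34.8 to 44.4 TPM in DKO, so part of its RNA remained. Its log2 fold change by limma was -1.03 ± 0.18 (SE, adjusted p = 0.00357) in Chd8 KO against WT. In DKO it was -0.59 ± 0.18 (adjusted p = 0.078, not called) against WT and -0.58 ± 0.18 (adjusted p = 0.0486) against P53 KO. DKO against Chd8 KO, at 0.44 ± 0.18 (adjusted p = 0.133), was not called. Trp53 (chromosome 11, 69580348 to 69591873) ranged from 229.5 to 268 TPM in WT and Chd8 KO and from 16.1 to 24.3 TPM in P53 KO and DKO. All 8 markers of the LSK gate, among them Kit and Ly6a, averaged at least 1 TPM in every genotype, and their levels differed in Chd8 KO, as given with the markers of other cells. P53 KO replicates 1 and 2 carry run number 119 and the other 10 libraries run number 88. Mitochondrial RNA made up 1.9% and 2.12% of TPM in those 2 libraries and 5.33% to 6.97% in the other 10. Together, 4 Y-linked genes reached 94.2 to 116 TPM in Chd8 KO and 1.80 to 2.03 TPM in DKO, with both high and low libraries in WT and P53 KO. Libraries within WT and within P53 KO therefore did not all come from the same mice, and a change that follows the sex of the mice cannot be told apart from the genotype in DKO against Chd8 KO. Each library sums to 1000000 TPM, so depth is unknown and no counting error can be given.

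The sequence just before the start was looked at in every gene of the set that had a promoter window. RefSeq promoter windows (GRCm38.p6, 250 bases before to 50 after the annotated start) existed for 9 of the 10 genes, all but Trp53inp1, in 10 windows. They were searched on both strands for the P53 consensus half-site, a 10-base pattern that is its own reverse complement, and for a pair of adjoining half-sites, 20 bases with at most 2 mismatches and every fixed C and G in place. The half-site was found in 3 of 10 windows of these genes, against 8.36% of 32851 windows of all genes, and the pair was found in 1 of 10 windows, against 0.326% of all windows. In the list of other P53 target genes given further on, 9 of 31 windows held the half-site (29.0%) and 2 the pair (6.45%). Neither pattern was thus particular to the 10 genes. A match is a description of letters and not of binding, and Mdm2 is known to be activated by P53 through an internal promoter in its first intron, which lies outside this window. The 3 windows that held a half-site are shown from 250 bases before the start up to the start, 5′ to 3′ on the strand of the gene, with matches in capitals. Ccng1 is at chr11:40755287-40755536 on the minus strand, Mdm2 at chr10:117710759-117711008 on the minus strand and Ppm1d at chr11:85311004-85311253 on the plus strand.
Ccng1: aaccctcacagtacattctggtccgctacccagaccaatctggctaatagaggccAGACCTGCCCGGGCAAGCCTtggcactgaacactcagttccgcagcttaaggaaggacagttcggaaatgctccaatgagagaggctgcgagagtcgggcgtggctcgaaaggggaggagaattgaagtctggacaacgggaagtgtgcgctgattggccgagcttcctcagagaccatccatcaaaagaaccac
Mdm2: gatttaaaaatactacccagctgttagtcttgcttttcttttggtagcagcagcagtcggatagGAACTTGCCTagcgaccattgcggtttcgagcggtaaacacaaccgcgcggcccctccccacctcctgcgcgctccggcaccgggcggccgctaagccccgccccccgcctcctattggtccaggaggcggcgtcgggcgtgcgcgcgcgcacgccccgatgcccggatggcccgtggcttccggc
Ppm1d: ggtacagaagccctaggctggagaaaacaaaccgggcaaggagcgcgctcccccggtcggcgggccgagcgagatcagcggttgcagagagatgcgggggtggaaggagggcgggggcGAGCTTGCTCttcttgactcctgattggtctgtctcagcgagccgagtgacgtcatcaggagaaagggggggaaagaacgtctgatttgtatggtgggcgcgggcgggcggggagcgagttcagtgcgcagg
For comparison, Cdkn1a, the cell cycle inhibitor gene often used to read P53 activity, had windows at more than 1 annotated start. A pair began 51 bases before the upstream start (chr17:29090729-29090978 on the plus strand holds it). The window of the downstream start (chr17:29093519-29093768) held neither pattern.
Cdkn1a pair: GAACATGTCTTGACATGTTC
The Ccng1 pair began 195 bases before the start and the Cdkn1a pair 51 bases before the upstream start of that gene, each with 1 mismatch. The single half-sites of Mdm2 and Ppm1d began 186 and 132 bases before the start. The windows of Mdm4, Usp7, Atm, Atr, Chek1 and Chek2 held neither pattern.

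In Chd8 KO against WT, Ccng1 and Trp53inp1 rose, Mdm2 and Mdm4 each had 1 transcript that rose but were not past the threshold as genes, and the other 6 genes were not called. Changes are log2 fold changes of TPM + 1 with their standard error, from limma fitted across the 13162 genes that averaged 1 TPM or more, and a gene was called at a Benjamini-Hochberg adjusted p under 0.05. The 2 called genes of 10 stand beside 16.6% of all genes called in this comparison, 9.65% higher and 6.98% lower, so the count is near the background and each gene has to be read by its own values. Across the 10 genes the median change was 0.14, beside 0.02 over all genes tested.

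**Figure D1:**
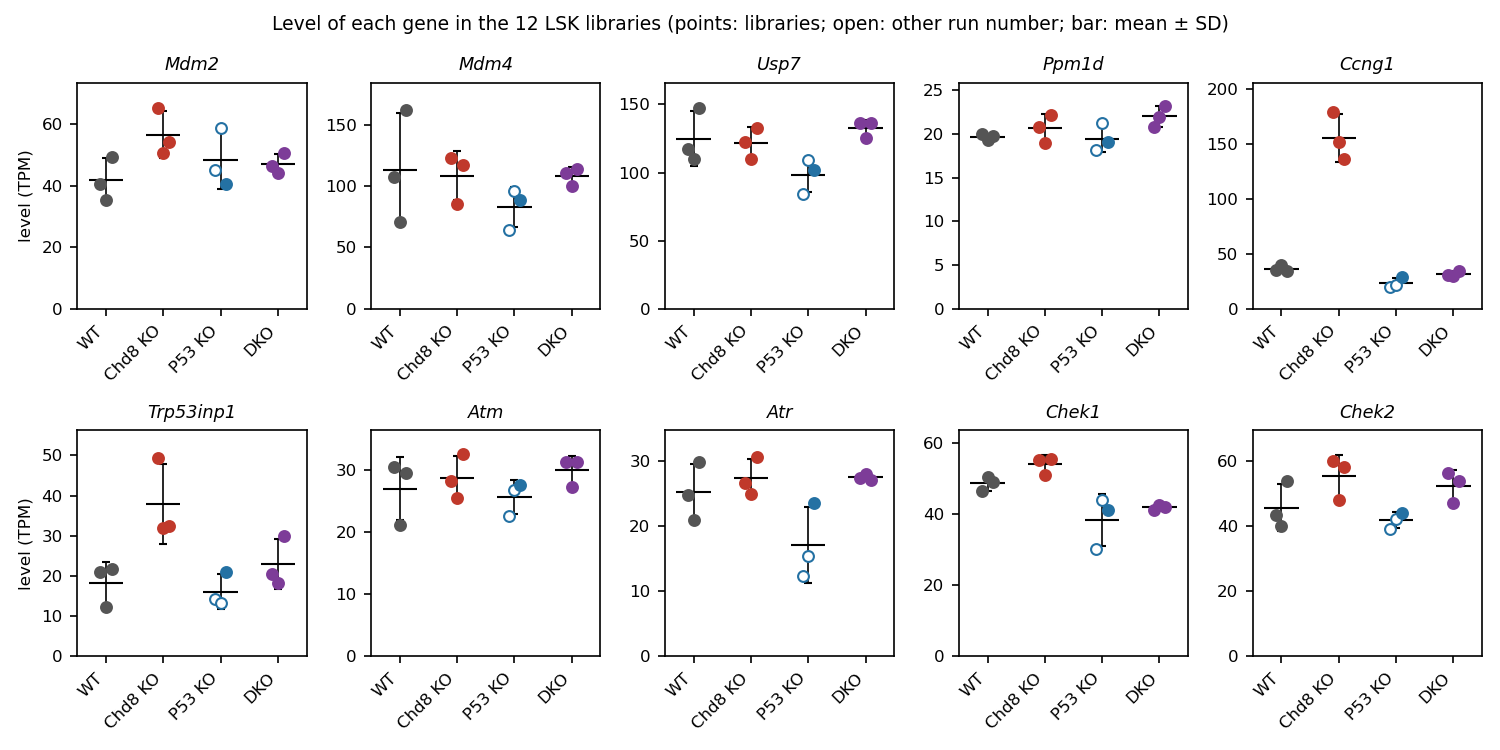
Level of each of the 10 genes in TPM (vertical axes, each from 0) in the 3 libraries of each genotype; points are libraries, open points the 2 libraries of run 119, and bars the mean ± SD. Ccng1 stands at 136 to 179 TPM in Chd8 KO and at or below 39.5 TPM in the other 9 libraries, while Ppm1d lies between 18.1 and 23.2 TPM throughout.

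Mdm2 (chromosome 10, 117688875 to 117710758) encodes the ligase of the feedback loop. Mdm2 was measured at 40.5, 35.4 and 49.4 TPM in WT, 65.2, 50.6 and 54.1 TPM in Chd8 KO, 45.2, 58.9 and 40.7 TPM in P53 KO and 46.3, 44.2 and 50.5 TPM in DKO (replicates 1 to 3). Every Chd8 KO library was above every WT library and, by 50.6 against 50.5 TPM at the closest, above every DKO library, whereas WT, P53 KO and DKO overlapped. As a gene, Mdm2 was at 0.44 ± 0.16 (adjusted p = 0.0807) in Chd8 KO against WT and at -0.26 ± 0.16 (adjusted p = 0.309) in DKO against Chd8 KO, neither of which was called. The first value was called under median-of-ratios scaling, at 0.43 ± 0.13 (adjusted p = 0.0433), in the run of 10 libraries (adjusted p = 0.0481), without WT replicate 3, at 0.56 ± 0.16 (adjusted p = 0.0473), and without P53 KO replicate 2, at 0.44 ± 0.13 (adjusted p = 0.0474).

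The Mdm2 level is the sum of 9 annotated transcripts, 8 of them with a mean of at least 1 TPM, and one carried about as much as all others together. ENSMUST00000020408.15 made up 48.1% ± 8.87 of Mdm2 TPM in WT and 56.2% ± 7.64 in Chd8 KO (SD, n = 3). By replicate, the levels of ENSMUST00000020408.15 were 19.0, 20.4 and 19.7 TPM in WT, 36.6, 32.4 and 26.3 TPM in Chd8 KO, 23.9, 24.8 and 18.9 TPM in P53 KO and 22.7, 24.6 and 22.9 TPM in DKO. The Chd8 KO libraries lay above all 9 others. It rose from WT to Chd8 KO by 0.65 ± 0.13 (adjusted p = 0.0216), from limma across 38181 transcripts. Calls at that level covered 4.31% of transcripts, with 2.5% higher. By the same fit no transcript of the 10 genes was called in P53 KO against WT, DKO against WT or DKO against P53 KO, where 0.105%, 0.93% and 4.03% of transcripts were called, and 8, 1 and 11 of their 46 had an unadjusted p under 0.05. The share of all transcripts at that unadjusted p is not given here, so these counts are not read against a background. The rise of ENSMUST00000020408.15 was no longer called when WT replicate 1 or 3, or either of Chd8 KO replicates 1 and 2, was left out, with values of 0.54 to 0.65 and adjusted p between 0.0601 and 0.0945. It was also not called under median-of-ratios scaling (adjusted p = 0.06), with only the compared groups (adjusted p = 0.053) and after adjusting for Y-linked RNA (adjusted p = 0.0524), and was called in 19 of 26 settings. The next transcript, ENSMUST00000131627.1, averaged 7.11 ± 0.712 TPM in WT, 9.25 ± 2.19 in Chd8 KO, 9.69 ± 2.95 in P53 KO and 8.84 ± 1.72 in DKO. Its Chd8 KO libraries began at 7.99 TPM, just above the highest WT library at 7.88 TPM, and its change there was 0.32 ± 0.22 (adjusted p = 0.476).

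Mdm4 (chromosome 1, 132986105 to 133030587) encodes the Mdm2 relative that covers the activation domain of P53. After Usp7 it had the highest mean of the set, 103 TPM over the 12 libraries. Its libraries held 107, 70.8 and 162 TPM in WT, 123, 85.4 and 117 TPM in Chd8 KO, 64.3, 95.9 and 88.7 TPM in P53 KO and 111, 100.3 and 114 TPM in DKO. WT held both a low and the highest library, and it spanned the range of Chd8 KO and DKO. Mdm4 changed by -0.0022 ± 0.26 (adjusted p = 0.997) between WT and Chd8 KO, so the summed level gave no call, and its sign turned with the left-out library, from -0.30 to 0.29. The near-identical pseudogene Mdm4-ps was listed at 0.0384 to 0.201 TPM.

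Below the level of the gene, the make-up of Mdm4 RNA differed between genotypes. The main transcript, ENSMUST00000188090.6, held 45.3% ± 3.95 of Mdm4 TPM in WT, 47.6% ± 3.06 in Chd8 KO, 42.8% ± 1.00 in P53 KO and 41.9% ± 1.67 in DKO. The second, ENSMUST00000189596.1, held 22.3% ± 4.31 in WT, 15.8% ± 1.74 in Chd8 KO, 22.6% ± 1.98 in P53 KO and 29.0% ± 0.822 in DKO. Its level was not called in Chd8 KO against WT, at -0.47 ± 0.35 (adjusted p = 0.526 by limma). ENSMUST00000191212.6, a minor transcript, took up a larger share in Chd8 KO, with 12.5% ± 0.286 against 5.19% ± 2.93 in WT, 3.73% ± 0.254 in P53 KO and 5.37% ± 1.21 in DKO. ENSMUST00000191212.6 was measured at 4.72, 5.97 and 4.46 TPM in WT, 14.9, 10.8 and 14.8 TPM in Chd8 KO, 2.21, 3.73 and 3.43 TPM in P53 KO and 7.24, 5.47 and 4.67 TPM in DKO (replicates 1 to 3). All 3 Chd8 KO libraries exceeded the other 9. It rose by 1.26 ± 0.21 (adjusted p = 0.00973) in Chd8 KO against WT, a call lost without Chd8 KO replicate 1 at 1.18 (adjusted p = 0.0526). In DKO against Chd8 KO it was at -1.10 ± 0.21 (adjusted p = 0.0268), beside 2.15% of transcripts called there, 0.977% lower. That call was lost without Chd8 KO replicate 1 or 3 or DKO replicate 2 or 3, with adjusted p of 0.0908 to 0.125, and at -0.83 (adjusted p = 0.513) after adjusting for Y-linked RNA.

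A second minor Mdm4 transcript, ENSMUST00000190807.1, was also highest in Chd8 KO. By replicate, the levels of ENSMUST00000190807.1 were 3.07, 1.93 and 2.02 TPM in WT, 11.3, 6.64 and 8.58 TPM in Chd8 KO, 0.521, 0.401 and 2.22 TPM in P53 KO and 3.38, 0.891 and 1.02 TPM in DKO. Chd8 KO again lay above the other 9 libraries, and its share was 8.10% ± 0.972 there against 2.28% ± 0.897 in WT. The difference was called in DKO against Chd8 KO, at -1.92 ± 0.39 (adjusted p = 0.0325), and not in Chd8 KO against WT, at 1.55 ± 0.39 (adjusted p = 0.0522). The first call was lost when any Chd8 KO library or DKO replicate 2 or 3 was left out, with adjusted p from 0.0718 to 0.142, and after adjusting for Y-linked RNA (-2.07, adjusted p = 0.336). It was lost as well with a pseudocount of 0.1 (-2.48, adjusted p = 0.0677) and with no filter on low values (adjusted p = 0.0721), so that it held in 17 of 25 settings. ENSMUST00000185418.1, the third most abundant, went the other way in share, with 18.0% ± 1.91 in WT, 8.28% ± 1.36 in Chd8 KO, 15.9% ± 1.44 in P53 KO and 16.4% ± 1.01 in DKO. This transcript stood at 18.9, 11.5 and 32.6 TPM in WT, 8.91, 6.65 and 11.5 TPM in Chd8 KO, 9.49, 14.8 and 15.5 TPM in P53 KO and 18.8, 15.3 and 19.3 TPM in DKO. Chd8 KO overlapped with P53 KO, its highest library was level with the lowest of WT at 11.5 TPM, and its change of -1.05 ± 0.32 (adjusted p = 0.0979) was not called. The TPM of overlapping transcripts are estimates made by a tool not given in the sources used here, and what these transcripts encode was not looked up, since no transcript annotation was used here.

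**Figure D2:**
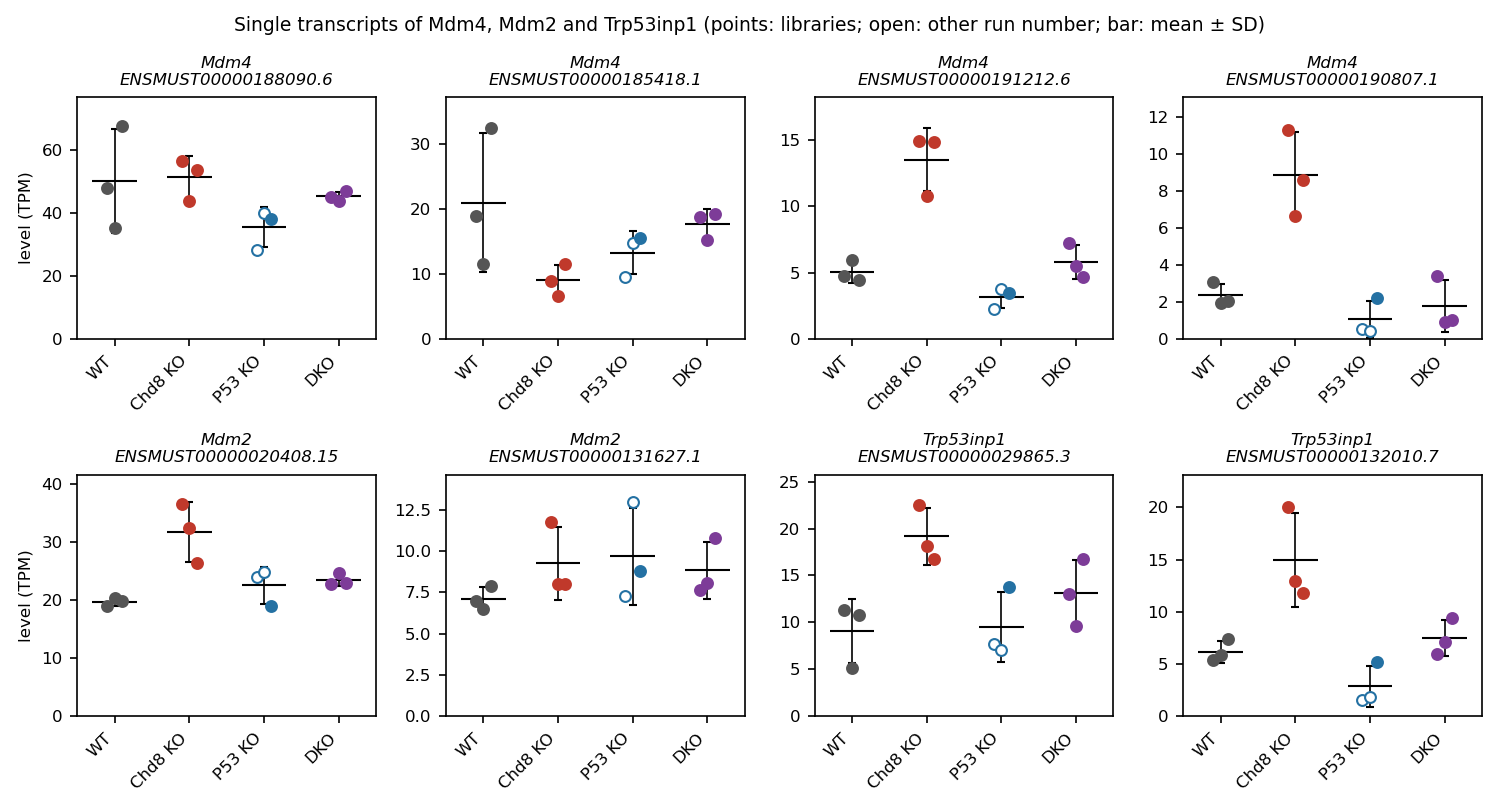
Level in TPM (vertical axes, each from 0) of 4 transcripts of Mdm4, 2 of Mdm2 and 2 of Trp53inp1 in each library, with open points for run 119 and bars for the mean ± SD of 3 libraries. ENSMUST00000191212.6 and ENSMUST00000190807.1 of Mdm4 stand higher in the 3 Chd8 KO libraries than in the other 9, while the main Mdm4 transcript overlaps between WT and Chd8 KO.

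Usp7 (chromosome 16, 8688722 to 8757067) encodes a deubiquitinase that removes ubiquitin from Mdm2 and from P53. Usp7 was measured at 118, 109.6 and 147 TPM in WT, 123, 109.9 and 133 TPM in Chd8 KO, 84.5, 109 and 102 TPM in P53 KO and 136, 125 and 136 TPM in DKO (replicates 1 to 3). P53 KO had the lowest mean, and its highest library lay just under the lowest of WT and of Chd8 KO and further under DKO. Usp7 was at -0.03 ± 0.12 (adjusted p = 0.902) in Chd8 KO against WT. In DKO against P53 KO it rose by 0.43 ± 0.12 (adjusted p = 0.0417), a call described further on with the run of the libraries. Its main transcript, ENSMUST00000161046.8, averaged 39.9 ± 5.17 TPM in WT, 46.3 ± 3.00 in Chd8 KO, 30.2 ± 6.65 in P53 KO and 43.9 ± 2.97 in DKO.

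Ccng1 (chromosome 11, 40748552 to 40755309), the gene of cyclin G1, had the largest change of the 10 genes in Chd8 KO against WT. Cyclin G1 is a P53 target that brings a phosphatase to Mdm2. By replicate, the levels of Ccng1 were 35.4, 39.5 and 34.1 TPM in WT, 179, 152 and 136 TPM in Chd8 KO, 19.8, 21.8 and 29.1 TPM in P53 KO and 30.4, 30.1 and 34.7 TPM in DKO. Chd8 KO stood far above all other libraries, and DKO overlapped with WT. The rise was 2.06 ± 0.14 (adjusted p = 1.55e-05) in Chd8 KO against WT, and the fall was -2.25 ± 0.14 (adjusted p = 6.64e-06) in DKO against Chd8 KO. Means were 36.3 ± 2.79 TPM in WT, 156 ± 21.7 TPM in Chd8 KO and 31.7 ± 2.55 TPM in DKO (SD, n = 3). After adjusting for Y-linked RNA the fall was -2.24 ± 0.21 (adjusted p = 0.000838).

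Ccng1 was also the one gene of the set for which the Chd8 effect differed between the P53 backgrounds by the test of that difference. The Chd8 effect was 0.43 ± 0.14 (adjusted p = 0.0648) without P53. P53 KO replicates 1 and 2, of run 119, held 19.8 and 21.8 TPM of Ccng1, and every other library held 29.1 TPM or more. With 1 library left out the 0.43 ran from 0.32 to 0.59, highest without P53 KO replicate 3. Its value with the run as a covariate is not given here, so its size apart from the run is not known. The difference between the Chd8 effects without and with P53 was -1.63 ± 0.20 (adjusted p = 0.00231). That is 1 call of 10, where 1.8% of all genes were called, 0.836% lower. All of the change sat in one transcript, since ENSMUST00000020576.7 was the one Ccng1 transcript of 2 that reached a mean of 1 TPM, with 2.06 ± 0.14 (adjusted p = 3.52e-05) in Chd8 KO against WT. Ccng2, its closest relative, was not called in Chd8 KO against WT, at -0.39 ± 0.21 (adjusted p = 0.241). In DKO against Chd8 KO, where Ccng1 fell, Ccng2 was called higher, at 0.77 ± 0.21 (adjusted p = 0.0434). Among the 10577 genes that averaged 5 TPM or more, those whose levels followed Ccng1 most closely over the 12 libraries were Slc19a2, Cpped1 and Zmat3, with Pearson's r of 0.99, 0.98 and 0.98. Over the 9 libraries without Chd8 KO the same r were 0.86, 0.69 and 0.66, so part of the likeness was the shared height of the Chd8 KO group.

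Trp53inp1 (chromosome 4, 11156441 to 11174379) encodes a P53-induced nuclear protein that helps kinases act on P53. Its libraries held 20.9, 12.1 and 21.6 TPM in WT, 49.3, 31.9 and 32.4 TPM in Chd8 KO, 14.1, 13.1 and 21.0 TPM in P53 KO and 20.4, 18.2 and 29.9 TPM in DKO. Every Chd8 KO library was above the other 9. From WT to Chd8 KO it rose by 1.03 ± 0.27 (adjusted p = 0.0273). The call was lost with no filter on low values (adjusted p = 0.0544), without WT replicate 2, at 0.78 ± 0.26 (adjusted p = 0.072), and without Chd8 KO replicate 1, at 0.83 ± 0.29 (adjusted p = 0.104). In DKO against Chd8 KO the value was -0.71 ± 0.27 (adjusted p = 0.123) and it was 0.48 ± 0.27 (adjusted p = 0.26) in the pair without P53, DKO against P53 KO. The difference between the Chd8 effects on the P53 backgrounds, -0.55 ± 0.38 (adjusted p = 0.44), was not called.

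Both abundant Trp53inp1 transcripts had higher means in Chd8 KO, though neither was called by itself. ENSMUST00000029865.3 was at 9.05 ± 3.43 TPM in WT and 19.2 ± 3.01 TPM in Chd8 KO, with 1.06 ± 0.31 (adjusted p = 0.0858). ENSMUST00000132010.7 was measured at 5.33, 5.81 and 7.34 TPM in WT, 20.1, 13.0 and 11.8 TPM in Chd8 KO, 1.55, 1.83 and 5.13 TPM in P53 KO and 5.93, 7.13 and 9.36 TPM in DKO (replicates 1 to 3). Its lowest libraries were the 2 P53 KO libraries of run 119, and from WT to Chd8 KO it changed by 1.13 ± 0.32 (adjusted p = 0.0793). The genes closest to Trp53inp1 over the 12 libraries were Susd6, Rnf169 and Heatr5a, with r of 0.93, 0.93 and 0.92, and 0.85, 0.92 and 0.86 without Chd8 KO.

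Ppm1d (chromosome 11, 85311254 to 85347071), the gene of the Wip1 phosphatase that removes the activating marks from P53 and its kinases, was the most even of the set. By replicate, the levels of Ppm1d were 20.04, 19.4 and 19.7 TPM in WT, 20.8, 19.0 and 22.2 TPM in Chd8 KO, 18.1, 21.2 and 19.1 TPM in P53 KO and 20.9, 22.0 and 23.2 TPM in DKO. All groups but DKO and WT overlapped, and the highest library was 1.28 times the lowest. It differed from WT by 0.06 ± 0.09 (adjusted p = 0.688) in Chd8 KO and by 0.15 ± 0.09 (adjusted p = 0.353) in DKO. Among the 4 genes of the set named here as P53 targets, the changes in Chd8 KO against WT were thus 2.06 for Ccng1, 1.03 for Trp53inp1, 0.44 for Mdm2 and 0.06 for Ppm1d, the last 2 not called.

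**Figure D3:**
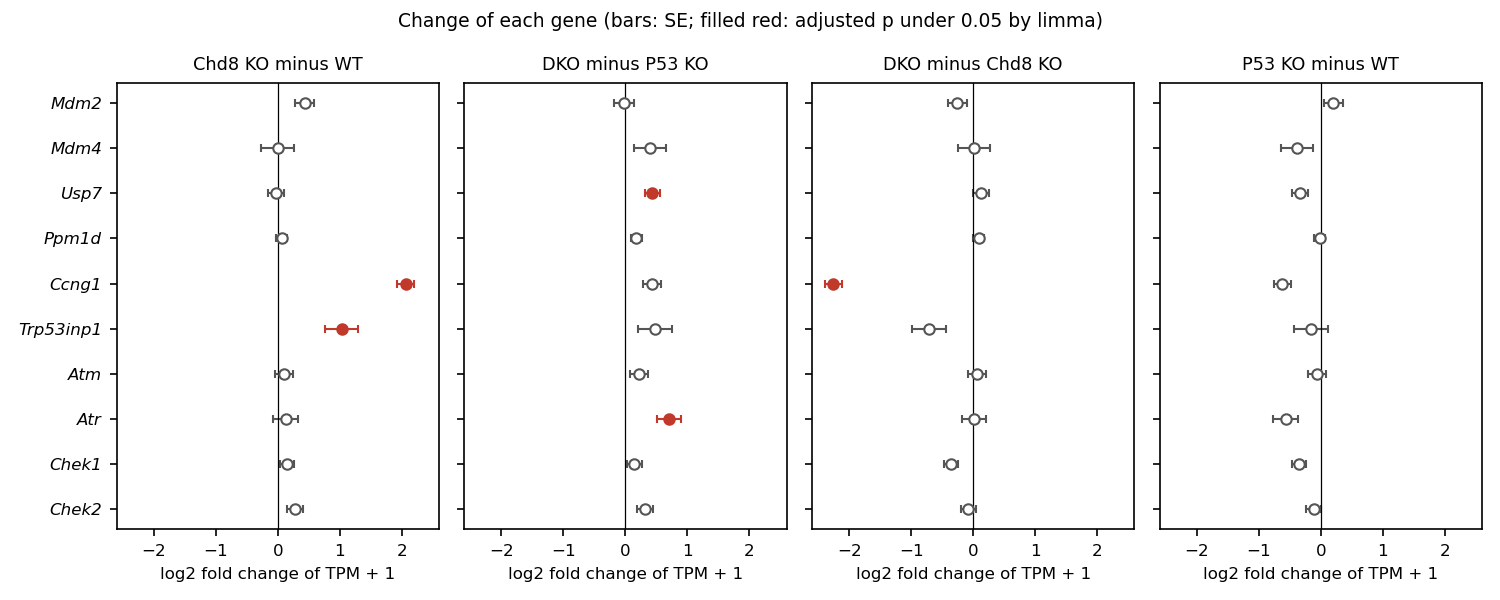
Log2 fold change of TPM + 1 for each gene in 4 comparisons (horizontal axes) with SE bars from limma; filled red points passed an adjusted p under 0.05. Ccng1 stands at 2.06 in Chd8 KO minus WT and at -2.25 in DKO minus Chd8 KO, and the other red points are Trp53inp1 in the first comparison and Usp7 and Atr in DKO minus P53 KO.

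None of the 4 kinase genes was called in Chd8 KO against WT by limma, and 1 of them, Chek2, had an unadjusted p under 0.05 (0.0483). Atm (chromosome 9, 53437122 to 53536828) encodes the kinase that answers DNA double-strand breaks. Its libraries held 30.5, 21.1 and 29.5 TPM in WT, 28.2, 25.4 and 32.6 TPM in Chd8 KO, 22.6, 26.7 and 27.6 TPM in P53 KO and 31.3, 27.3 and 31.3 TPM in DKO. The 4 genotypes overlapped, and its change was 0.10 ± 0.15 (adjusted p = 0.705), a value that was negative, at -0.07, without WT replicate 2. Its main transcript, ENSMUST00000118282.7, averaged 19.2 ± 0.413 TPM in WT, 22.0 ± 2.73 in Chd8 KO, 15.5 ± 3.71 in P53 KO and 20.7 ± 0.488 in DKO.

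Chek2 (chromosome 5, 110839800 to 110874140) encodes the kinase that Atm activates and that phosphorylates P53. Chek2 was measured at 43.4, 39.9 and 53.8 TPM in WT, 60.1, 47.9 and 58.2 TPM in Chd8 KO, 39.2, 42.3 and 44.2 TPM in P53 KO and 56.4, 47.0 and 53.7 TPM in DKO (replicates 1 to 3). Chd8 KO and WT overlapped, while every DKO library was above every P53 KO library. The changes were 0.28 ± 0.12 (adjusted p = 0.156) in Chd8 KO against WT and 0.31 ± 0.12 (adjusted p = 0.113) in DKO against P53 KO. The Chd8 effect had the same sign and a similar size on both backgrounds, and the difference between them was 0.04 ± 0.18 (adjusted p = 0.921), which changed sign under other scalings and in the fits that set the run apart, and does not show that the effects were equal. The main transcript, ENSMUST00000066160.2, averaged 26.6 ± 3.30 TPM in WT and 33.9 ± 3.64 TPM in Chd8 KO.

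Atr (chromosome 9, 95857597 to 95953217) encodes the kinase that answers stalled replication forks. By replicate, the levels of Atr were 24.7, 21.0 and 29.8 TPM in WT, 26.5, 25.0 and 30.6 TPM in Chd8 KO, 12.3, 15.4 and 23.5 TPM in P53 KO and 27.4, 27.9 and 27.1 TPM in DKO. The lowest 2 libraries were P53 KO replicates 1 and 2, and the third P53 KO library lay within the range of WT. Atr was at 0.13 ± 0.20 (adjusted p = 0.715) in Chd8 KO against WT, and in DKO against P53 KO it rose by 0.70 ± 0.20 (adjusted p = 0.0386).

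Chek1 (chromosome 9, 36708482 to 36726658) encodes the kinase that Atr activates and that holds back entry into mitosis while DNA is copied. Its libraries held 46.3, 50.3 and 49.1 TPM in WT, 55.3, 51.0 and 55.5 TPM in Chd8 KO, 30.0, 43.8 and 41.0 TPM in P53 KO and 41.2, 42.5 and 41.9 TPM in DKO. Each Chd8 KO library was above each WT library, and each DKO and P53 KO library was below each WT library. The changes were 0.15 ± 0.12 (adjusted p = 0.43) in Chd8 KO against WT, -0.21 ± 0.12 (adjusted p = 0.331) in DKO against WT and -0.36 ± 0.12 (adjusted p = 0.079) in DKO against Chd8 KO, none of which was called. The last was called under median-of-ratios scaling (-0.44, adjusted p = 0.023), under quantile normalization (-0.41, adjusted p = 0.0316), in the run of 10 libraries and with only the compared groups, and was -0.22 (adjusted p = 0.646) after adjusting for Y-linked RNA. The summed level of 18 S phase genes, such as the Mcm helicase genes, was 3014 to 3129 TPM in WT, 3241 to 3488 TPM in Chd8 KO, 2418 to 2950 TPM in P53 KO and 2695 to 2998 TPM in DKO. Their part in the Chek1 values was not tested.

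In P53 KO against WT none of the 10 genes was called, beside 0.182% of all genes. Ccng1, Atr, Chek1 and Usp7, 4 of 10, had an unadjusted p under 0.05 by limma, all lower in P53 KO. The share of all genes at that unadjusted p is not given here, so this count is not read against a background. The libraries of Ccng1, Usp7 and Chek1 did not overlap, 3 of 10 beside 13% of all genes. Ccng1 was at -0.62 ± 0.14 (adjusted p = 0.186), Usp7 at -0.34 ± 0.12 (adjusted p = 0.27), Chek1 at -0.35 ± 0.12 (adjusted p = 0.245) and Atr at -0.57 ± 0.20 (adjusted p = 0.258). Mdm2, a P53 target, was at 0.20 ± 0.16 (adjusted p = 0.581). Without P53 KO replicate 3, which leaves the 2 libraries of run 119, Ccng1 and Atr were called; with the run as a covariate Ccng1 was at -0.31 ± 0.15 (adjusted p = 0.769).

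In DKO against WT again none of the 10 was called, beside 5.23% of all genes, and none had an unadjusted p under 0.05 by limma. The changes of the 10 ran from -0.21 for Chek1 to 0.32 for Trp53inp1. Ppm1d lay higher and Chek1 lower in DKO than in WT without overlap, 2 of 10 beside 31.2% of all genes. In DKO against Chd8 KO the 1 called gene was Ccng1, beside 10.5% of all genes, 6.32% higher and 4.21% lower. Counting genes whose libraries did not overlap, 4 of 10 lay lower in DKO than in Chd8 KO, namely Mdm2, Ccng1, Trp53inp1 and Chek1, beside 41.9% of all genes that did not overlap in either direction. The same 4 genes lay higher in Chd8 KO than in WT without overlap, beside 37.1% of all genes, and these comparisons share the Chd8 KO libraries.

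In DKO against P53 KO, Usp7 and Atr rose, 2 of 10 beside 14.9% of all genes, with 11.2% higher. Without overlap, Mdm4, Ccng1, Usp7, Atr and Chek2 lay higher in DKO than in P53 KO, 5 of 10 beside 35.3% of all genes in either direction. The 2 P53 KO libraries of run 119 held 12.3 and 15.4 TPM of Atr, below the 21.0 to 30.6 TPM of the 10 libraries of run 88, and P53 KO replicate 3 held 23.5 TPM. With the run as a covariate Atr was at 0.21 ± 0.19 (adjusted p = 0.564) and Usp7 at 0.38 ± 0.18 (adjusted p = 0.277). In the run of 10 libraries alone, with 1 P53 KO library assumed to vary like the others, they were at 0.21 ± 0.18 (adjusted p = 0.53) and 0.38 ± 0.16 (adjusted p = 0.227). Both calls were lost with no filter on low values, under quantile normalization, with only the compared groups and after adjusting for Y-linked RNA, with adjusted p of 0.0557 to 0.1, and that of Usp7 with no variance trend (adjusted p = 0.0569). Both were also lost under median-of-ratios scaling, at 0.58 ± 0.18 (adjusted p = 0.0716) for Atr and 0.30 ± 0.09 (adjusted p = 0.0566) for Usp7. That scaling moved the median of all genes in this comparison from 0.11 to -0.01 and the share of higher genes among those called from 75.2% to 40.0%. Leaving out WT replicate 1, Chd8 KO replicate 1 or 2, P53 KO replicate 1 or any DKO library ended both calls, and leaving out P53 KO replicate 2 ended that of Atr, with adjusted p of up to 0.152. Ribosomal protein RNA, which made up 20.6% to 23.6% of TPM in P53 KO and 16.0% to 19.0% in the other groups, moved with this comparison, and its part in the result was not tested by itself. A rescaling that left out mitochondrial and ribosomal protein genes together kept the call of Usp7 and not that of Atr (adjusted p = 0.0517), and mitochondrial RNA was also low in the 2 libraries of run 119. Over the 12 libraries the genes closest to Usp7 were Senp3, Chuk and Rabggtb (r of 0.96, 0.96 and 0.95) and those closest to Atr were Casd1, Smchd1 and Ap1g1 (r of 0.98 for each). The 2 libraries of run 119 held the least Atr, and no r without them is given. The part of the run in these r was not tested.

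Some marker genes of other cells moved with Chd8 KO and stood beside its changes in Ccng1, Trp53inp1 and the Mdm2 and Mdm4 transcripts. B and lymphoid markers averaged at least 1 TPM for 11 of 11 genes in WT and for 4 of 11 in Chd8 KO, and their sum was 435 to 759 TPM in WT, 46.6 to 95.8 TPM in Chd8 KO, 293 to 636 TPM in P53 KO and 309 to 568 TPM in DKO. The sum of 10 erythroid markers was 481 to 973 TPM in WT, 88.8 to 153 TPM in Chd8 KO, 270.3 to 1669 TPM in P53 KO and 746 to 1680 TPM in DKO. The sum of 8 eosinophil and mast cell markers was 1064 to 2325 TPM in WT and 269 to 304 TPM in Chd8 KO. No marker of these 3 lists was at 0 in all 3 libraries of a genotype. Of the neutrophil and monocyte list, Ly6g was at 0 in all 3 libraries of P53 KO and of DKO. In Chd8 KO against WT, 0 of 9 tested markers of that list were called, with a median of 0.57. The median was -2.10 in P53 KO against WT, -2.04 in DKO against WT and -2.47 in DKO against Chd8 KO, also with 0 called. Of the list, 9 of 10 averaged at least 1 TPM in WT and in Chd8 KO, and 5 of 10 in P53 KO and in DKO. Called lower in Chd8 KO against WT were 3 of 6 T and NK, 2 of 6 megakaryocyte and 1 of 7 stromal markers, with 0 called higher, beside 16.6% of all genes. The T and NK sum was 150 to 160 TPM in WT and 146 to 202 TPM in Chd8 KO. Markers of the LSK gate itself moved too, with 4 of 8 called higher and 1 lower in Chd8 KO against WT and a median change of 0.53. Slamf1, a surface marker of blood stem cells, averaged 6.54 ± 1.07 TPM in WT and 18.4 ± 2.15 TPM in Chd8 KO, and Procr, another such marker, 20.04 ± 8.48 and 54.9 ± 8.14 TPM. Cd48, found on progenitors, averaged 143 ± 9.96 TPM in WT and 233 ± 28.9 TPM in Chd8 KO, and Flt3, the receptor gene of lymphoid-primed progenitors, 149.6 ± 37.5 and 60.2 ± 35.3 TPM (SD, n = 3). None of these 4 overlapped between the 2 groups. The part of all these markers in the results was not tested, and in these bulk samples fewer cells of a type and less RNA per cell cannot be told apart.

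Other genes of the pathway give the setting of these values. The lists were chosen with earlier results of these libraries known, so their direction is not independent evidence. The counts of each list are read against all genes, of which 9.65% were higher and 6.98% lower in Chd8 KO against WT, and 11.2% higher and 3.69% lower in DKO against P53 KO. Of 30 other P53 target genes, 18 rose and 1 fell in Chd8 KO against WT, with a median of 1.04, and 2 rose in DKO against P53 KO, with a median of -0.03. The smallest p-values belonged to the receptor gene Eda2r, at 3.35 ± 0.19 (adjusted p = 3.66e-06), the splicing and RNA stability gene Zmat3, at 3.60 ± 0.21 (adjusted p = 6.14e-06), and the AKT repressor gene Phlda3, at 3.81 ± 0.26 (adjusted p = 1.55e-05). The rise of Ccng1 lay within the range of this list, which ran from -0.90 to 3.81, and that of Trp53inp1 near its median.

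**Figure D4:**
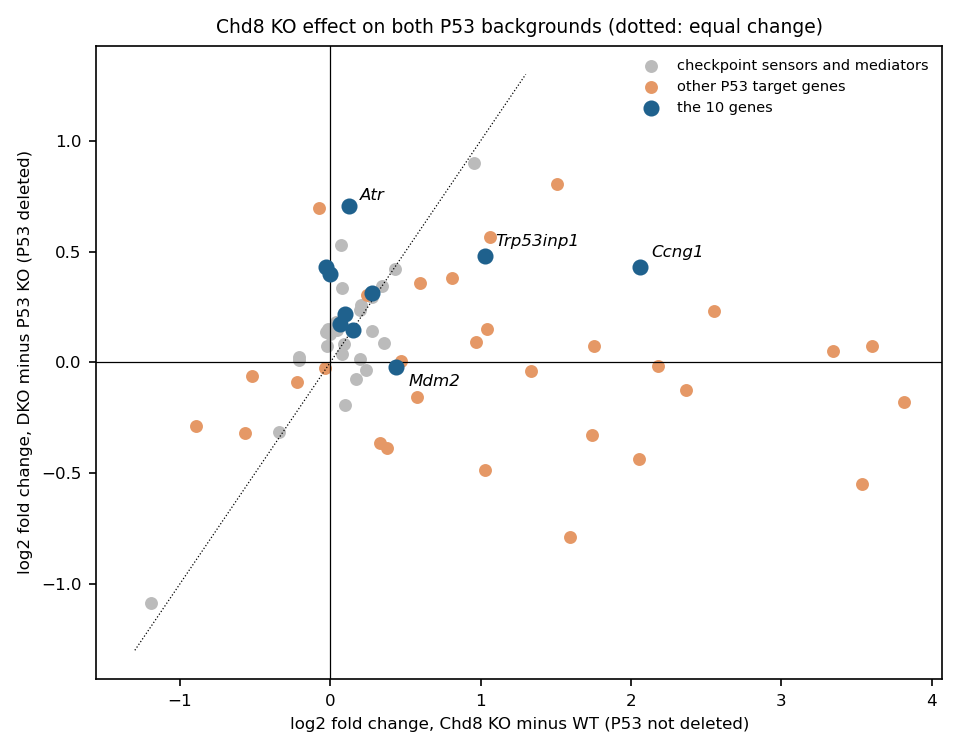
Log2 fold change of TPM + 1 in Chd8 KO minus WT (horizontal) and DKO minus P53 KO (vertical) for the 10 genes, 30 other P53 target genes and 26 checkpoint sensors and mediators; each point is a gene and the dotted line marks equal change. Ccng1 lies at 2.06 and 0.43, Trp53inp1 at 1.03 and 0.48, and Atr at 0.13 and 0.70. The vertical values include P53 KO replicates 1 and 2, which are of run 119.

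Other enzymes that add or remove ubiquitin on P53 or Mdm2 gave 1 higher and 1 lower of 14 in Chd8 KO against WT, near the 16.6% of all genes called. The higher one was the ligase gene Stub1, at 0.43 ± 0.10 (adjusted p = 0.0178), and the lower one the ligase gene Mkrn1, at -0.62 ± 0.10 (adjusted p = 0.00213). Both were called in the other direction in DKO against Chd8 KO, at -0.40 ± 0.10 (adjusted p = 0.0356) and 0.59 ± 0.10 (adjusted p = 0.00456). Of 10 measured genes for proteins that bind Mdm2 or work with such binders, 2 were higher and 5 lower in Chd8 KO against WT. In DKO against P53 KO, 3 were higher and 5 lower. These proteins do not all act on Mdm2 in the same direction, so a fall is not read as less restraint on it. The nucleolar protein gene Gltscr2 fell by 0.96 ± 0.11 and 0.98 ± 0.11 in these comparisons, the ribosomal protein gene Rpl23 by 0.47 ± 0.07 and 0.65 ± 0.07, and Rpl11 by 0.37 ± 0.09 and 0.66 ± 0.09 (adjusted p of 0.019 or less by limma). Ribosomal protein RNA as a whole made up 17.1% to 19.0% of TPM in WT and 16.0% to 16.9% in Chd8 KO, and 20.6% to 23.6% in P53 KO and 16.6% to 17.1% in DKO, and 2 of the P53 KO libraries are of run 119. The part of either in these falls was not tested. Gltscr2 stood at 353, 346 and 313 TPM in WT and at 165, 173 and 181 TPM in Chd8 KO, without overlap. Of 16 other kinases, acetyltransferases and cofactors of P53, 2 fell in Chd8 KO against WT, where 6.98% of all genes did, the acetyltransferase gene Kat5 by 0.44 ± 0.09 (adjusted p = 0.0077) and the kinase gene Hipk2 by 0.39 ± 0.10 (adjusted p = 0.0267).

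Around the checkpoint kinases, 4 of 26 sensor and mediator genes were higher and 2 lower in Chd8 KO against WT, and 4 higher and 1 lower in DKO against P53 KO, both near the shares of all genes. Mdc1, which binds marked chromatin at breaks, rose by 0.96 ± 0.09 (adjusted p = 9.20e-05) and 0.90 ± 0.09 (adjusted p = 0.000503). Mdc1 was measured at 49.1, 46.5 and 45.7 TPM in WT, 94.1, 83.2 and 101 TPM in Chd8 KO, 41.5, 49.9 and 42.8 TPM in P53 KO and 86.4, 85.7 and 80.5 TPM in DKO (replicates 1 to 3). Chd8 KO and DKO lay above WT and P53 KO without overlap. Nbn, of the break-sensing complex that activates Atm, rose by 0.43 ± 0.09 (adjusted p = 0.00738) and 0.42 ± 0.09 (adjusted p = 0.0121). Timeless, which stabilises replication forks, fell by 1.19 ± 0.15 (adjusted p = 0.000537) and 1.09 ± 0.15 (adjusted p = 0.00202). By replicate, the levels of Timeless were 67.1, 63.2 and 84.0 TPM in WT, 28.6, 27.2 and 36.3 TPM in Chd8 KO, 60.8, 80.6 and 66.1 TPM in P53 KO and 35.0, 29.4 and 31.3 TPM in DKO. Here Chd8 KO and DKO lay below the other groups. Among 7 cell cycle genes that Chek1 and Chek2 act on, the 1 called in Chd8 KO against WT was the mitotic kinase gene Cdk1, at 0.32 ± 0.06 (adjusted p = 0.00772). Unlike Mdc1, Nbn and Timeless, Cdk1 did not change alike without P53, with -0.16 ± 0.06 (adjusted p = 0.107) in DKO against P53 KO. The difference between its Chd8 effects was called, at -0.48 ± 0.09 (adjusted p = 0.0247). In DKO against Chd8 KO it fell by 0.36 ± 0.06 (adjusted p = 0.00711).

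Between the genes themselves, levels over the 12 libraries moved together most for Mdm4 and Usp7, with Pearson's r of 0.88 on the log2 scale, followed by Atr and Usp7 at 0.85 and Ccng1 and Trp53inp1 at 0.82. Ccng1 and Mdm2 had an r of 0.49, and Mdm2 and Atr one of 0.09. The 12 points share the 4 group means, the run and the fixed total of each library, so these values describe the libraries only.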

How the data were processed

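RNA levels were taken from 12 transcript tables in TPM, which the authors deposited with 1 table per library. The submitters' processing notes name the GRCm38 (mm10) build and, among other tools, STAR 2.6.1e and featureCounts 1.6.2. Not given in the sources used here are the tool behind the TPM and its way of dividing reads between overlapping transcripts or copies.

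Transcript TPM were summed by gene symbol. Genes (13162) and transcripts (38181) that averaged 1 TPM or more were fitted with limma 3.58.1 (R 4.3.3) on a log2(TPM + 1) scale, using lmFit, eBayes with a variance trend, and 1 term for each genotype over all 12 libraries and 8 residual degrees of freedom. All adjusted p-values come from limma, two-sided, with Benjamini-Hochberg adjustment over all genes or all transcripts. A fold change on this scale understates the change of low genes. The fit was tested on simulated data.

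The 10 genes and all gene lists were chosen with earlier results of these data known. Named are all 10 genes, though not with a value for every comparison, and every called transcript. Of the 3 most abundant transcripts of a gene, only some are named. Also named are up to 3 genes of each other list with the smallest p in Chd8 KO against WT, and the 3 genes closest to each called gene by Pearson's r. Alternatives changed pseudocount, low-value filter, scaling, libraries in the fit, variance trend, replicate block, run and Y-linked level. Tables were handled with pandas 2.3.3 in Python 3.11.15. Depth is unknown and the precision rests on 3 libraries per genotype.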

Additional observations from a re-analysis of the deposited data

Results flagged for a closer look

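Ccng1 was flagged because its response to Chd8 loss differed between the P53 backgrounds by the test of that difference. The Chd8 effect was 2.06 ± 0.14 with P53 and 0.43 ± 0.14 without it. The 0.43 rests in part on P53 KO replicates 1 and 2, of run 119, which held the least Ccng1 of all libraries. The difference between the effects was -1.6333 (SE 0.20, adjusted p = 0.00231 by limma). The one Ccng1 transcript above 1 TPM, ENSMUST00000020576.7, gave -1.6328 (SE 0.20, adjusted p = 0.00609). Ccng1 was higher in Chd8 KO than in WT in 3 of 3 libraries, and both calls held in all 25 settings tried, with adjusted p of 0.00094 to 0.0104 for the gene and 0.000967 to 0.0261 for the transcript. Groups of 3 libraries are too small for the check of single outlying libraries.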

How the results depend on the processing

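Ccng1 kept its call in Chd8 KO against WT and in DKO against Chd8 KO in all 26 settings and in the interaction in all 25, Trp53inp1 kept its call in Chd8 KO against WT in 23 of 26, and Usp7 and Atr kept theirs in DKO against P53 KO in 11 and 10 of 26. The cause of each change given here was not tested.

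The number of the 10 genes called was 2 in Chd8 KO against WT, 1 with no filter on low values, and 3, with Mdm2, under median-of-ratios scaling and in the run of 10 libraries. In DKO against Chd8 KO it was 1, and 2 under median-of-ratios scaling, quantile normalization, only the compared groups and only the run of 10 libraries. In DKO against P53 KO it was 2, then 1 without mitochondrial and ribosomal protein genes and with no variance trend, and 0 with no filter, under either median-of-ratios scaling or quantile normalization, with only the compared groups, with the run as a covariate, in the run of 10 libraries and after adjusting for Y-linked RNA. With 1 library left out at a time, the count ran from 1 to 3 in Chd8 KO against WT, 0 to 2 in P53 KO against WT, 1 to 2 in DKO against Chd8 KO, 0 to 3 in DKO against P53 KO and 1 to 2 in the interaction.

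The number of transcripts called of 46 was 3 in Chd8 KO against WT, 6 with the run as a covariate and 5 in the run of 10 libraries. It was 3 in DKO against Chd8 KO and 1 after adjusting for Y-linked RNA, and 0 in DKO against P53 KO by limma (11 at an unadjusted p under 0.05, a count without a background) and 3 with a mean of at least 5 TPM. Leaving out 1 library gave 1 to 6 in Chd8 KO against WT, 0 to 6 in P53 KO against WT, 1 to 3 in DKO against Chd8 KO, 0 to 8 in DKO against P53 KO and 1 to 4 in the interaction, with the highest counts of the last 2 without P53 KO replicate 3. The number of all transcripts called moved as well over the settings. It was 581 to 2573 in Chd8 KO against WT (1644 as reported) and 22 to 3055 in P53 KO against WT (40). It was 84 to 2138 in DKO against Chd8 KO (819), 108 to 5650 in DKO against P53 KO (1537) and 70 to 2683 in the interaction (167). All these highest counts but that of DKO against Chd8 KO came without P53 KO replicate 3. The higher counts among the 46 are thus not read as a result about these genes.

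Some changes that were not called turned sign. With the run as a covariate, and equally in the run of 10 libraries, P53 KO against WT became -0.0237 for Mdm2, 0.2371 for Trp53inp1 and 0.0483 for Atm, Mdm2 in DKO against P53 KO became 0.2012 and the interaction of Chek2 -0.0402. Under median-of-ratios scaling, DKO against WT became -0.088 for Mdm4 and -0.003 for Usp7, DKO against Chd8 KO became -0.0754 for Mdm4, -0.0225 for Atm and -0.0744 for Atr, Ppm1d became 0.0128 in P53 KO against WT and -0.0078 in the interaction, and Chek2 -0.0835 in the interaction. Under quantile normalization the matching values were -0.0563 for Mdm4 in DKO against WT, -0.0024 for Atm and -0.0594 for Atr in DKO against Chd8 KO, 0.0551 and -0.0506 for Ppm1d, and -0.0575 for Chek2. Without mitochondrial and ribosomal protein genes Mdm4 became -0.0115 in DKO against WT. After adjusting for Y-linked RNA, Mdm4 became 0.1047, -0.1996 and -0.3043 and Atr -0.015 and -0.2181 in the comparisons of Chd8 KO or DKO that turned, Usp7 0.0021 in Chd8 KO against WT, Ppm1d 0.0188 in P53 KO against WT, and the interactions of Chek1 and Chek2 0.0679 and -0.0615.

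With 1 library left out, values that turned sign ran from -0.1346 to 0.1266 for Mdm2 in DKO against P53 KO. For Mdm4 they ran from -0.2993 to 0.2944 in Chd8 KO against WT, -0.2868 to 0.3068 in DKO against WT and -0.1493 to 0.1105 in DKO against Chd8 KO. For Atm they ran from -0.0652 to 0.1881 in Chd8 KO against WT, -0.222 to 0.0312 in P53 KO against WT, -0.0019 to 0.2513 in DKO against WT and -0.0185 to 0.1537 in DKO against Chd8 KO. The others were Ppm1d (-0.079 to 0.0279) and Chek2 (-0.2037 to 0.0077) in P53 KO against WT, Usp7 (-0.1163 to 0.0959) in Chd8 KO against WT, Atr (-0.0499 to 0.091) in DKO against Chd8 KO, Chek1 (-0.0181 to 0.2478) in DKO against P53 KO, and the interactions of Chek1 (-0.1665 to 0.0994) and Chek2 (-0.0845 to 0.1269).

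The background moved as well. Over all settings, the genes called were 1144 to 2900 in Chd8 KO against WT (2189 as reported), 16 to 1255 in P53 KO (24), 279 to 1046 in DKO against WT (688), 185 to 2658 in DKO against Chd8 KO (1386), 298 to 3083 in DKO against P53 KO (1957) and 83 to 1575 in the interaction (237), with the highest counts of P53 KO against WT, DKO against P53 KO and the interaction without P53 KO replicate 3. Higher genes were 66.1% of calls in DKO against WT (39.5% by median-of-ratios, 52.1% by quantile), 60.0% in DKO against Chd8 KO (44.3% and 46.1%), 75.2% in DKO against P53 KO (40.0% and 47.8%), 53.6% in the interaction (42.3% and 33.6%) and, by quantile normalization, 51.9% against 41.7% in P53 KO against WT. The replicate block, with the replicate number as a term, changed no gene call and ended 1 transcript call, ENSMUST00000191212.6 of Mdm4 in DKO against Chd8 KO (-1.10, adjusted p = 0.0628). Libraries of the same number correlated at -0.255 to 0.118 in their deviations from the group means (18 pairs). Those of different number correlated at -0.217 to 0.242 (36 pairs). With 3 libraries a group, these values cannot show whether libraries of the same number were prepared together. The interaction has no fit on only the compared groups.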

Other observations

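Some transcripts separated by run within P53 KO. ENSMUST00000174105.7 of Chek1 stood at 5.78 and 6.61 TPM in P53 KO replicates 1 and 2, the libraries of run 119, and at 15.0 TPM in replicate 3, against 14.0 to 19.96 TPM in WT, Chd8 KO and DKO. ENSMUST00000173963.8 of the same gene was at 16.3, 23.1 and 13.7 TPM in P53 KO, so that its share of Chek1 was 54.3%, 52.7% and 33.5%. ENSMUST00000172742.1 of Chek1, chosen after its values were seen, did not follow the run. It was listed at 0 in all 3 P53 KO libraries, in 2 of 3 DKO libraries and in 1 of 3 Chd8 KO libraries, and at 1.49 to 4.98 TPM in WT.

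ENSMUST00000185398.6 of Mdm4, also chosen after its values were seen, held 1.07% to 2.66% of Mdm4 in WT, 0.159% to 0.318% in Chd8 KO, 1.9% to 2.90% in P53 KO and 0.457% to 1.35% in DKO. From WT to Chd8 KO it changed by -1.26 ± 0.36 (adjusted p = 0.0809 by limma).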
